A study of Homo sapiens with 12 samples.

Results

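The genes studied here encode the effector proteins of the RNA-induced silencing complex (RISC), namely the Argonautes AGO1, AGO2, AGO3 and AGO4 and the TNRC6 proteins TNRC6A, TNRC6B and TNRC6C. They were measured in MDA-MB-231, an established mesenchymal-like human breast cancer cell line, on exon arrays that carry several probes for each transcript. Members were chosen by symbol, as all array probes whose transcript accession belongs to 1 of the 7 genes. This gave 144 of the 209671 probes assigned to genes, for 7 of the 18252 genes tested. A probe was kept if every array of some group detected it, meaning a signal that the scanner software marked as well above background, and 131 of the 144 were kept. The kept probes were 18 of 19 for AGO1, 19 of 19 for AGO2, 18 of 19 for AGO3, 12 of 18 for AGO4, 22 of 22 for TNRC6A, 21 of 25 for TNRC6B and 21 of 22 for TNRC6C.

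The study asked how much the activity of miR-145-5p, a microRNA with tumor suppressor activity, depends on AGO2. There were 4 groups of 3 biological replicates, all of the same line. The cntrl cells received a negative control microRNA precursor at 5 nM together with a control siRNA at 500 pM. The mimic145 cells received the miR-145-5p precursor at 5 nM, and the labels do not say whether they also received the control siRNA. The sirnaAGO2 cells received a Dicer-substrate siRNA against AGO2 at 500 pM for 72 h, and whether they also received the control precursor is likewise not given. The sirnaAGO2+mimic145 cells received both oligonucleotides.

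A microRNA acts as a guide inside an Argonaute protein, which pairs with target mRNAs mainly through the seed of the guide. Human AGO2 can cut a fully matched target, as happens with an siRNA, while silencing by microRNAs mostly goes through TNRC6 proteins. These bind Argonaute and recruit the poly(A)-binding protein and the PAN2-PAN3 and CCR4-NOT deadenylases, after which the mRNA is translated less and decays. The guide that was transfected is shown because it is the agent of every mimic comparison below, with its seed, bases 2 to 8, in capitals. It is the mature microRNA as listed by RefSeq (GRCh38.p14, chr5:149430661-149430683, plus strand).
hsa-miR-145-5p: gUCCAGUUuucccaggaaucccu

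Per array, 60.5% to 77.3% of spots were detected and 0 were saturated. Of the probes of markers of this line, 8 of 9 for VIM, 17 of 18 for CD44, 19 of 19 for AXL and 3 of 3 for CAV1 were detected on all 12 arrays. The estrogen receptor gene ESR1 had 3 of 14 such probes, the progesterone receptor gene PGR 0 of 9 and E-cadherin, CDH1, 4 of 16. For markers of other cells the counts were 3 of 33 for the leukocyte gene PTPRC, 1 of 15 for the hepatocyte gene ALB and 2 of 7 for the T cell gene CD3E. A slide held 2 arrays of 1 replicate number, with and without the mimic, from either intact or silenced cells, and the array with the mimic was always in position 2. The mimic was therefore compared within slides, where it cannot be told apart from slide position, and silencing was compared between slides.

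AGO2, the endonuclease of the family and the target of the siRNA, was lower in every silenced array than in every array with AGO2 intact. Its normalized log2 signal, the mean over its 19 probes, was 9.21, 9.14 and 9.01 in cntrl replicates 1 to 3 and 8.35, 8.44 and 8.42 in sirnaAGO2. In cells with the mimic it was 9.44, 9.36 and 9.39 in mimic145 and 8.27, 8.35 and 8.41 in sirnaAGO2+mimic145. The groups with and without the siRNA did not overlap on either background. The share of all genes whose groups do not overlap is not given, so lack of overlap is only a description, here and below. The log2 change was -0.71 (SE 0.08, limma adjusted p = 0.00492) for sirnaAGO2 against cntrl, with 61.0% of the signal left, and -1.06 (SE 0.08, adjusted p = 0.000783) for sirnaAGO2+mimic145 against mimic145, with 48.1% left. These comparisons share no arrays. AGO2 was the only member called in the first, where 2.58% of all genes tested were called, and 1 of 2 called in the second, against 4.31% of all genes. Signal on these arrays does not tell fewer transcripts per cell from fewer cells that carry them. Without sirnaAGO2 replicate 1 the first change was -0.68 with an adjusted p = 0.0522, and the second was called without any single array. With all arrays of 1 replicate number left out, in turn, the adjusted p of AGO2 ranged from 0.114 to 0.221 in the first and from 0.0516 to 0.0756 in the second.

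**Figure D1:**
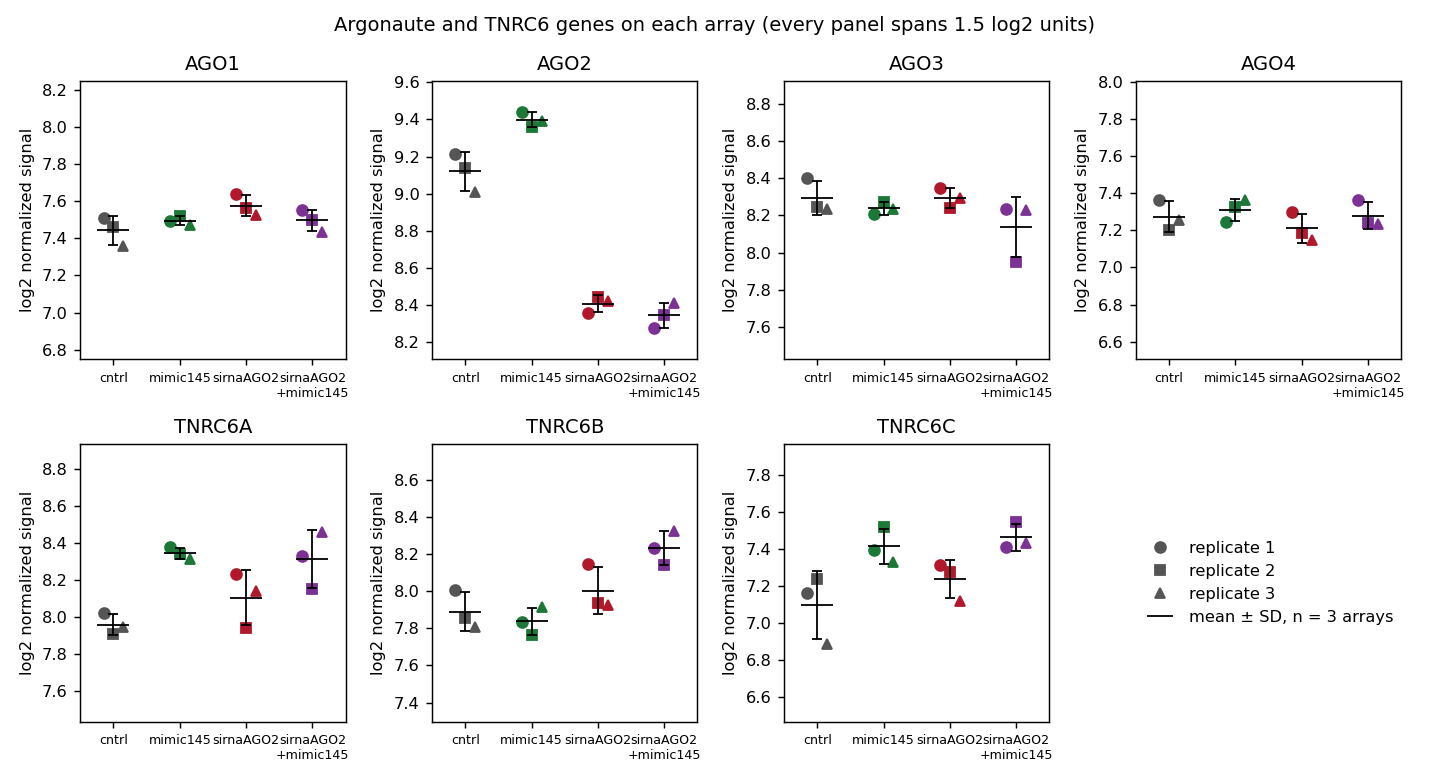
Normalized log2 signal (y axis) of each of the 7 genes on each of the 12 arrays, by group (x axis), with the mean ± SD of 3 arrays and a symbol for each replicate number. The 6 AGO2 values of the silenced groups lie between 8.27 and 8.44, below the 6 values of the other groups, which start at 9.01, while the values of AGO1 stay between 7.36 and 7.64 in all groups.

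Every AGO2 probe was lower after silencing, but by very different amounts. For sirnaAGO2 against cntrl the 19 log2 changes ran from -0.13 to -1.40 with a median of -0.74, and 9 probes passed on their own, against 0.484% of the 142919 probes tested. For sirnaAGO2+mimic145 against mimic145 the median was -1.15 and 13 AGO2 probes passed as lower, against 1.43% of all probes. The 5 probes with the smallest falls were the same on both backgrounds, which share no arrays. The 3 probes assigned to the accession NM_012154 changed by -0.98 to -1.40 in cells without the mimic, and the 16 probes of NM_001164623 by -0.13 to -1.03, with a median of -0.70. At the low end, the probes A_37_P170237, A_37_P170241 and A_37_P170254, named here after their values were seen, changed by -0.18, -0.15 and -0.13 in cells without the mimic and by -0.08, -0.54 and -0.31 in cells with it. The probe A_37_P393960 was not detected on any sirnaAGO2+mimic145 array and was at least 2.64-fold lower there than in mimic145. Its adjusted p = 0.00602 by limma belongs to a measured log2 change of -2.22 that uses undetected values, and the bound was not tested. The positions of probes along the transcripts are not given in the files used here, and whether a probe also binds transcripts of other genes was not tested.

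**Figure D2:**
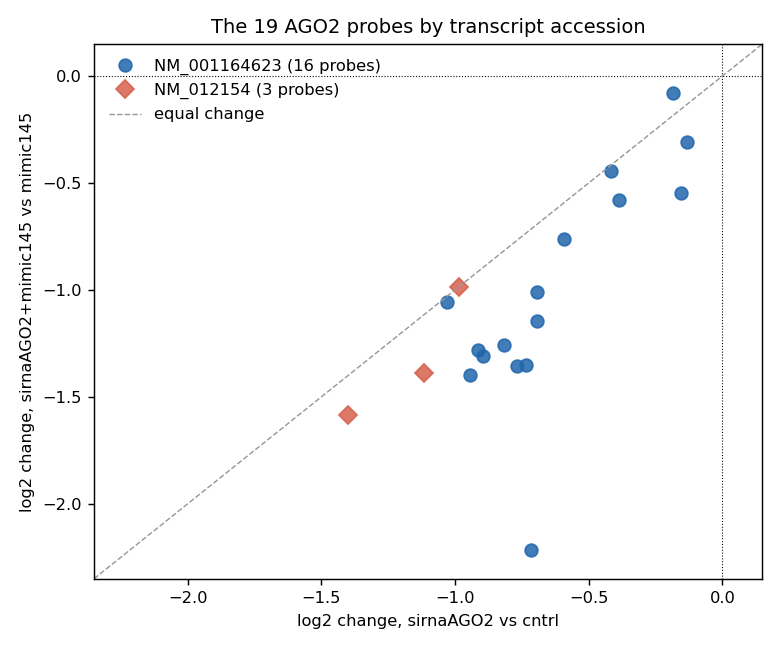
Log2 change of each of the 19 AGO2 probes in sirnaAGO2 against cntrl (x axis) and in sirnaAGO2+mimic145 against mimic145 (y axis), comparisons that share no arrays, by the transcript accession of the probe, with a dashed line where both changes are equal. All probes lie below 0 on both axes, those with the smallest falls lie toward the upper right, and the lowest point is the probe that was not detected in sirnaAGO2+mimic145.

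The mimic raised AGO2 in cells with AGO2 intact. All 3 mimic145 arrays lay above all 3 cntrl arrays, and the differences within slides were 0.23, 0.22 and 0.38 for replicates 1 to 3. The log2 change was 0.28 (SE 0.08, limma adjusted p = 0.0298). AGO2 was 1 of 3 members called in this comparison, all of them higher, against 22.6% of all genes tested, so that a called gene is common in this comparison. In silenced cells the differences within slides were -0.08, -0.10 and -0.01, with a log2 change of -0.06 (95% interval -0.24 to 0.11, adjusted p = 0.607), and the groups overlapped. In silenced cells the 16 probes of NM_001164623 changed by -0.93 to 0.31, and the 3 of NM_012154 by 0.16 to 0.30. The lowest, A_37_P393960, was not detected on any array with both agents. By the mean over probes the mimic effects had opposite signs in all 3 replicates, though the 95% interval in silenced cells included no change. In replicate 3 of the silenced cells the negative sign rests on A_37_P393960, which read 6.31 in sirnaAGO2 and, undetected, 5.58 with both agents. The difference of the mimic effects, with this probe included, was -0.34 (SE 0.11, 95% interval -0.59 to -0.10, unadjusted p = 0.0114 by limma). After adjustment over all genes by limma it did not pass (adjusted p = 0.181). In order of level, AGO2 was highest in mimic145, then in cntrl, sirnaAGO2 and sirnaAGO2+mimic145. Neighbours in this order passed the adjusted test by limma, except for the silenced groups. The rise with the mimic had an adjusted p between 0.0525 and 0.112 when 1 of 5 arrays was left out (cntrl replicate 2 or 3, or any mimic145 replicate), with log2 changes from 0.21 to 0.31, and with the median over probes in place of the mean its adjusted p was 0.196.

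Of the 19 AGO2 probes 18 were higher with the mimic in cells with AGO2 intact, with 4 called higher and 1 called lower, against 15.4% of all probes called there, while in silenced cells 9 were higher and 10 lower. The probe that went the other way, A_37_P170237, read 13.76, 13.78 and 13.20 in cntrl, and 13.18, 13.35 and 12.78 in mimic145. In the silenced cells it read 13.54, 13.54 and 13.12 without the mimic and 12.98, 13.16 and 12.93 with it. It was thus lower with the mimic in every replicate on both backgrounds, by a log2 change of -0.48 (SE 0.11, adjusted p = 0.0201) in cells with AGO2 intact and of -0.37 (SE 0.11, adjusted p = 0.0933) in silenced cells, and it was 1 of the 3 probes with the smallest falls after silencing in cells without the mimic. Set against the mean of the other 18 AGO2 probes, its change with the mimic in intact cells was -0.80 (SE 0.09, adjusted p = 0.0168). It was the only 1 of the 131 member probes that stood apart from its gene in this comparison, against 0.816% of the 140083 probes tested in this way. In the other comparisons 0 member probes stood apart by limma, against 0.000714% of all probes for the mimic in silenced cells, 0.00143% for silencing alone, 0% for silencing with the mimic and 0% for the difference of the mimic effects. At an unadjusted p under 0.05 the member probes in these comparisons numbered 27, 12, 28 and 12 of 131, against 18.4%, 4.91%, 10.2% and 5.92% of all probes.

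The other Argonautes bind microRNAs much as AGO2 does, but lack its strong cutting activity. Their genes lie next to each other on chromosome 1 in the order AGO4, AGO1, AGO3. None of the 3 was called in any comparison. AGO1 read 7.51, 7.46 and 7.36 in cntrl and 7.64, 7.56 and 7.53 in sirnaAGO2, so that every sirnaAGO2 array was above every cntrl array. The rise of 0.13 (SE 0.06) had an unadjusted p = 0.0501 and an adjusted p = 0.264 by limma, and 16 of the 18 AGO1 probes were higher. By the methods' paired t-test its unadjusted p was 0.0215, where 17.5% of all genes were under 0.05. With the mimic present AGO1 was at 7.49, 7.52 and 7.47 in mimic145 and at 7.55, 7.50 and 7.44 in sirnaAGO2+mimic145, a change of 0.00 (95% interval -0.13 to 0.13). The mimic changed AGO1 by 0.05 (95% interval -0.08 to 0.18) in cells with AGO2 intact and by -0.08 (95% interval -0.21 to 0.05) in silenced cells.

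AGO3 ranged from 8.21 to 8.40 on the arrays other than sirnaAGO2+mimic145, where it read 8.24, 7.95 and 8.23, so that replicate 2 stood below all others. Its log2 change with silencing was 0.00 (95% interval -0.18 to 0.19), and with the mimic -0.06 in cells with AGO2 intact and -0.16 (95% interval -0.34 to 0.03) in silenced cells, lower in 3 of 3 replicates. Silencing with the mimic present gave -0.10 (95% interval -0.28 to 0.08), with -0.33 in replicate 2. AGO4 ranged from 7.15 to 7.36, and all of its groups overlapped. Its changes were 0.04 and 0.07 with the mimic and -0.06 and -0.03 with silencing, the first of each in cells without the other agent. No probe of AGO1, AGO3 or AGO4 passed on its own in any of these 4 comparisons. A change of the size of that of AGO2 after silencing lay outside the 95% interval of all 3 genes on both backgrounds.

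**Figure D3:**
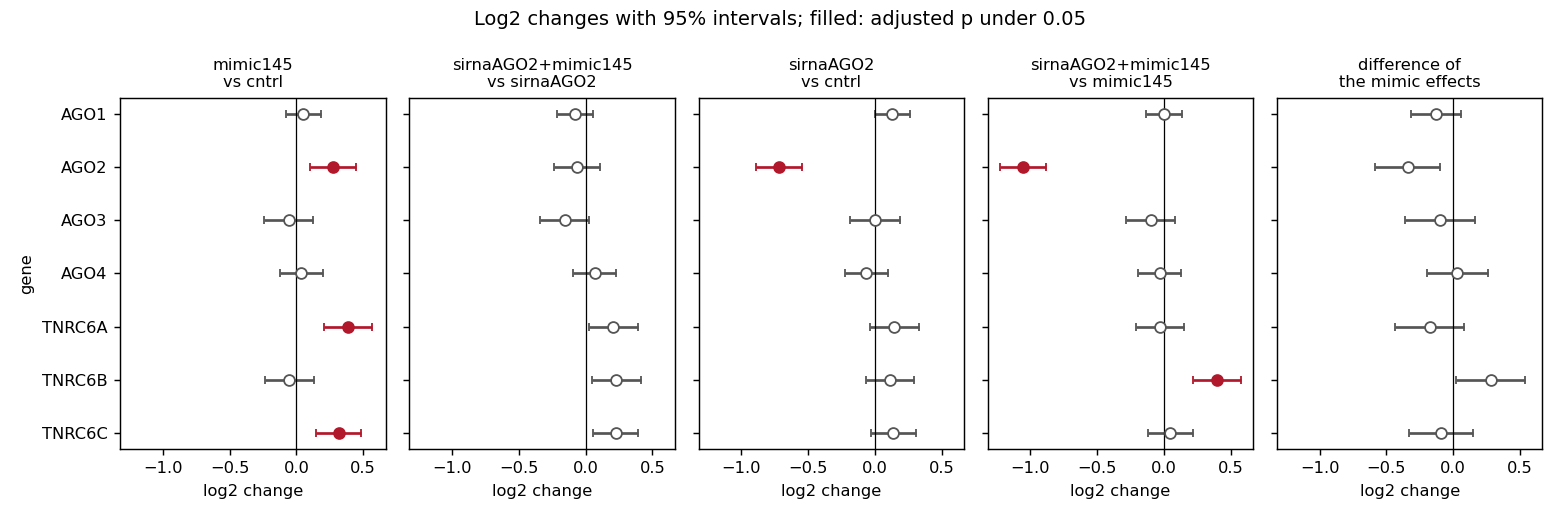
Log2 change (x axis) with its 95% interval for each of the 7 genes (y axis) in the 4 comparisons of groups and for the difference of the mimic effects, silenced minus intact; filled points had an adjusted p under 0.05. The filled points are AGO2, TNRC6A and TNRC6C for the mimic in cells with AGO2 intact, AGO2 for silencing alone, and AGO2 and TNRC6B for silencing with the mimic.

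TNRC6A, also known as GW182, and TNRC6C, its paralog, are scaffold proteins that link Argonaute to the deadenylases, and both rose with the mimic in cells with AGO2 intact. TNRC6A read 8.02, 7.91 and 7.95 in cntrl and 8.38, 8.34 and 8.31 in mimic145. TNRC6C read 7.16, 7.24 and 6.89 in cntrl and 7.39, 7.52 and 7.33 in mimic145. For both genes every mimic145 array lay above every cntrl array, given as a description. In this comparison 35.4% of all genes had an unadjusted p under 0.05 by limma. The log2 change was 0.38 (SE 0.08, limma adjusted p = 0.00922) for TNRC6A, with differences within slides of 0.36, 0.43 and 0.37, and 0.32 (SE 0.07, adjusted p = 0.0154) for TNRC6C, with 0.23, 0.28 and 0.44. Leaving out any single array kept TNRC6A called, whereas TNRC6C had an adjusted p = 0.0552 without cntrl replicate 3 and 0.0540 without mimic145 replicate 3. With all arrays of 1 replicate number left out, in turn, neither gene was called. The limma adjusted p was then 0.0558 to 0.0960 for TNRC6A and 0.0880 to 0.113 for TNRC6C.

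In silenced cells both genes were again higher with the mimic in all 3 replicates, but neither passed. TNRC6A read 8.23, 7.94 and 8.14 in sirnaAGO2 and 8.33, 8.15 and 8.46 in sirnaAGO2+mimic145, with overlap between the groups. TNRC6C read 7.31, 7.27 and 7.12 in sirnaAGO2 and 7.41, 7.55 and 7.43 with both agents, without overlap. The log2 change was 0.21 (SE 0.08, adjusted p = 0.131) for TNRC6A and 0.23 (SE 0.07, adjusted p = 0.0902) for TNRC6C. In this comparison limma called 0 of the 7 members, against 7.27% of all genes, 3 members (TNRC6A, TNRC6B and TNRC6C, all higher) had an unadjusted p under 0.05, against 28.8% of all genes. The methods' paired t-test gave 2 other members, AGO1 and AGO4, at an unadjusted p under 0.05, against 14.2% of all genes, and 0 after adjustment. Restricted to probes detected on all 12 arrays, the 3 TNRC6 genes passed, with limma adjusted p between 0.0263 and 0.0402. With that restriction 12.7% of all genes were called.

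The mimic effects on TNRC6A and TNRC6C in silenced and in intact cells differed by -0.18 (95% interval -0.43 to 0.08) and -0.09 (95% interval -0.33 to 0.15), and a difference was not detected. Silencing alone gave 0.15 and 0.14 for the genes, higher in 3 of 3 replicates but not called (adjusted p = 0.359 and 0.349). In order of level both were lowest in cntrl, then in sirnaAGO2, and highest in the groups with the mimic, and no neighbours in this order passed the adjusted test. For TNRC6C the mimic145 arrays nonetheless all lay above the sirnaAGO2 arrays, with a log2 change of 0.18 (95% interval 0.01 to 0.35, unadjusted p = 0.0395, adjusted p = 0.117). Groups further apart passed where they included cntrl. With both agents together, sirnaAGO2+mimic145 was above cntrl by 0.35 (adjusted p = 0.0167) for TNRC6A and by 0.37 (adjusted p = 0.0110) for TNRC6C. Against sirnaAGO2, mimic145 did not pass for TNRC6A (limma adjusted p = 0.0628), nor did sirnaAGO2+mimic145 for TNRC6C (limma adjusted p = 0.0902).

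TNRC6B, the paralog that shares the Argonaute-binding and the deadenylase-binding parts of the family, was not called with the mimic in intact cells. Its change with silencing alone, 0.11, was near those of TNRC6A and TNRC6C, and the genes were not tested against each other. TNRC6B read 8.01, 7.85 and 7.81 in cntrl and 7.83, 7.76 and 7.91 in mimic145, with overlap. Its change with the mimic was -0.05 (95% interval -0.23 to 0.13, limma adjusted p = 0.690). In sirnaAGO2 it read 8.15, 7.94 and 7.93, and in sirnaAGO2+mimic145 8.23, 8.14 and 8.33. All arrays with both agents thus lay above all arrays with the mimic alone. The log2 change between these groups was 0.40 (SE 0.08, limma adjusted p = 0.0316), with 0.40, 0.37 and 0.41 in the 3 replicates. TNRC6B and AGO2 were the 2 members called there, in opposite directions. The call of TNRC6B was close to the threshold and was lost when any of 11 of the 12 arrays was left out, all but cntrl replicate 3, with adjusted p from 0.0518 to 0.131 and log2 changes from 0.33 to 0.44. It was lost as well with 75th percentile scaling, in the authors' log2 table, with the median over probes and with the slide as a random block.

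In silenced cells TNRC6B was higher with the mimic by 0.23 (SE 0.08, unadjusted p = 0.0192, adjusted p = 0.106), in 3 of 3 replicates. The difference of the mimic effects was 0.28 (SE 0.11, 95% interval 0.02 to 0.54) with an unadjusted p = 0.0355 and an adjusted p = 0.267. For this difference limma called 0 of the 7 members, against 0.0110% of all genes. AGO2 and TNRC6B had an unadjusted p under 0.05, against 16.8% of all genes. The methods' paired t-test gave these 2 at an unadjusted p under 0.05, against 10.3% of all genes, and 0 after adjustment. Of the members, TNRC6B alone had a positive difference in all 3 replicates, whereas AGO1, AGO2, TNRC6A and TNRC6C had a negative one. In order of level TNRC6B was highest in sirnaAGO2+mimic145, followed by sirnaAGO2, cntrl and mimic145, and no neighbours passed the adjusted test. Against cntrl, cells with both agents were higher by 0.34 (adjusted p = 0.0195).

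With the mimic in cells with AGO2 intact 21 of 22 TNRC6A probes were higher and 15 passed on their own, 18 of 21 TNRC6C probes were higher and 8 passed, and 15 of 21 TNRC6B probes were lower and 1 passed. The median log2 changes of the probes were 0.42, 0.39 and -0.10. By transcript accession, the 5 TNRC6B probes of NM_001024843 were higher (0.08 to 0.25) and the 5 of NM_015088 were lower (-0.51 to -0.13). The 11 of NM_001162501 changed by -0.19 to 0.24. A difference between accessions was not tested, and 0 TNRC6B probes stood apart from their gene in this comparison. Over the 7 members 29 of 131 probes passed, 27 higher and 2 lower, against 15.4% of all probes. In silenced cells 17 of 22 probes of TNRC6A, 17 of 21 of TNRC6B and 17 of 21 of TNRC6C were higher with the mimic, and over the 7 members 5 passed, 4 higher and 1 lower, against 1.87% of all probes. The probe called lower there, A_37_P393960 of AGO2, was kept because all arrays of the intact groups detected it. It was not detected on any array with both agents, and was detected on 2 of 3 sirnaAGO2 arrays. With the mimic it was at least 1.08-fold lower. The adjusted p = 0.0397 by limma belongs to a measured log2 change of -0.93 that uses undetected values, and the bound was not tested. For silencing with the mimic 20 of 21 TNRC6B probes were higher, from 0.06 to 0.74. The other, A_37_P185788, was not detected on any array with both agents. By transcript accession the medians of the TNRC6B probes were 0.52, 0.42 and 0.52 over 5, 11 and 5 probes.

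**Figure D4:**
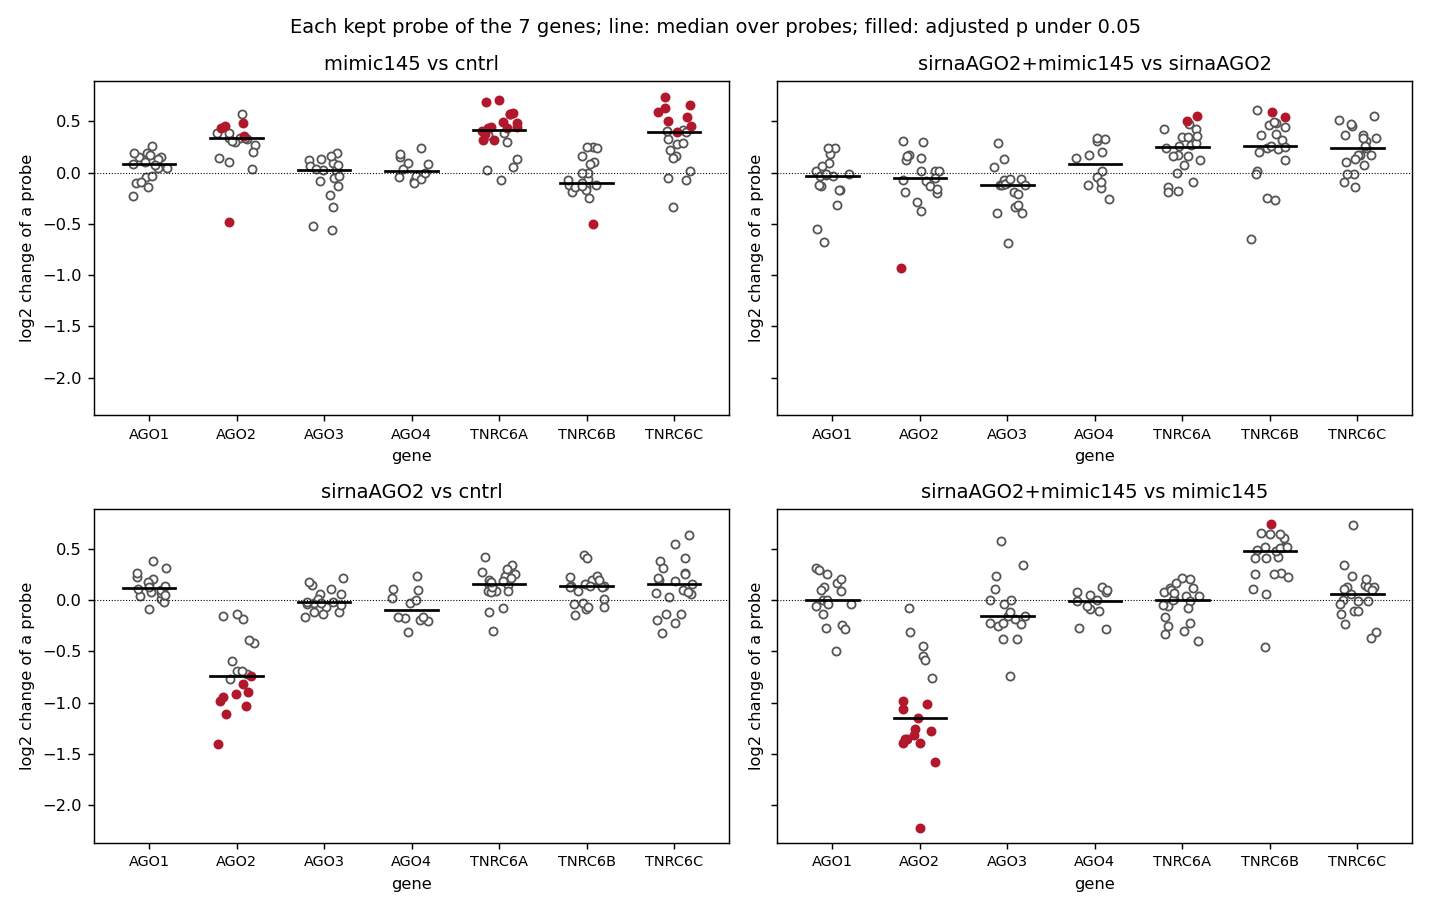
Log2 change (y axis) of every kept probe of the 7 genes (x axis) in 4 comparisons, with the median over the probes of a gene as a line; filled points had an adjusted p under 0.05. Filled points gather above 0 for TNRC6A and TNRC6C with the mimic in intact cells, and below 0 for AGO2 in both silencing comparisons.

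Over the comparisons with both ends of the design, 4 members were called for sirnaAGO2+mimic145 against cntrl, AGO2 with a log2 change of -0.78 and the 3 TNRC6 genes higher, against 19.1% of all genes. For mimic145 against sirnaAGO2 AGO2 was called, higher by 0.99, against 21.7% of all genes. These comparisons share arrays with those above and are not separate evidence. The median log2 change over the 7 members was 0.05 for the mimic in intact cells, 0.07 for the mimic in silenced cells, 0.11 for silencing alone and -0.03 for silencing with the mimic. The medians of all genes were 0.01, 0.02, -0.03 and 0.00.

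Of 58 genes of proteins that load, modify, carry or act with Argonaute and TNRC6, 56 were measured. With the mimic in intact cells 5 rose and 8 fell, which is 23.2% of them against 22.6% of all genes, with a median log2 change of 0.01, as for all genes. By role, 1 of 16 TNRC6 partners rose and 3 fell, 2 of 10 loading chaperones rose and 1 fell, and 0 of 10 enzymes that act on Argonaute rose and 3 fell. Of the 11 other binding or transport proteins 1 rose and 1 fell, 1 of 4 genes of the PIWI clade rose, and 0 of 5 loading partners changed. The largest rises were those of CNOT11, a subunit of the CCR4-NOT deadenylase, by 0.60 (SE 0.07, adjusted p = 0.000867), of the germline Argonaute relative PIWIL1, by 0.53 from 1 probe (adjusted p = 0.0265), and of the chaperone HSP90AA1, by 0.40 (adjusted p = 0.0167). The largest falls were those of P4HA1, a subunit of the prolyl hydroxylase known to modify AGO2, with a log2 change of -0.83 (SE 0.11, adjusted p = 0.00104), of the decapping activator PATL1, with -0.49 (adjusted p = 0.00115), and of the deadenylase PAN2, with -0.49 (adjusted p = 0.00166).

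In silenced cells 0 partners rose and 2 fell with the mimic, namely IPO8, an importin that binds Argonaute, with a log2 change of -0.43 (adjusted p = 0.0365) and PATL1 with -0.26 (adjusted p = 0.0455), or 3.57% of the partners against 7.27% of all genes. Silencing alone raised 3 partners, or 5.36% against 2.58% of all genes. These were DICER1, the enzyme that cuts microRNA precursors, by 0.41 (SE 0.07, adjusted p = 0.0243), CNOT11 by 0.35 (adjusted p = 0.0471) and AHSA1, an activator of HSP90, by 0.31 (adjusted p = 0.0382). Silencing with the mimic raised ANKRD52, a subunit of the phosphatase that acts on AGO2, by 0.49 (SE 0.08, adjusted p = 0.0149), the same gene that changed by -0.31 (adjusted p = 0.0215) with the mimic in intact cells. It was the only partner called for silencing with the mimic, or 1.79% of the partners against 4.31% of all genes. These comparisons share the mimic145 arrays with opposite sign. For the difference of the mimic effects limma called 0 of 56 partners, where 14 (25.0%) had p under 0.05 before adjustment, against 16.8% of all genes, and the methods' paired t-test gave 0 after adjustment over all genes.

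The patterns of the members over the 12 arrays were compared as log2 values centred within each replicate number, as a description over arrays that share slides and controls. TNRC6A and TNRC6C were most alike among the members (Pearson r = 0.94), and AGO2 and TNRC6B were the most unlike (r = -0.78). Among 13326 genes with at least 3 kept probes, the genes most like AGO2 were CASC3, DNAAF2 and SPRYD7 (r = 0.99, 0.98 and 0.98). Those most like TNRC6A were SERPINB8, TAOK3 and DSTYK (r = 0.98, 0.97 and 0.96), and those most like TNRC6C were SLC45A4, ASMTL and SLC45A1 (r = 0.99, 0.98 and 0.97). For TNRC6B they were CNIH3, MTRES1 and LDAF1 (r = 0.97, 0.96 and 0.95). The genes most like AGO1, AGO3 and AGO4, which were not called in any comparison, were GLYCTK, SPHK1 and POP5 (r = 0.94, 0.89 and 0.88), ZNF740, CEP192P1 and STK38L (r = 0.95, 0.95 and 0.91), and STAMBP, TRIM10 and ENTPD8 (r = 0.91, 0.90 and 0.88).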

How the data were processed

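RNA of 12 samples was labelled with 1 dye and hybridised to SurePrint G3 Human Exon arrays, and the authors read the slides with Agilent Feature Extraction 10.7.3.1. The deposited values used are the processed signal, a background-corrected intensity not normalized between arrays, and, as an alternative, the authors' deposited table of quantile normalized log2 values. Intensities of spots other than controls and outliers (304 to 462 per array) were set to at least 1, quantile normalized and log2 transformed, the order of the study's methods. Spots of a probe and then kept probes of a gene were averaged. Probes had to be well above background by the scanner's flag, called detected here, on all 3 arrays of a group, and 28 probes without a value on every array were dropped. Probes were named through their transcript accession with RefSeq symbols, and 23493 had no gene.

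With limma 3.58.1 in R 4.3.3, group means plus a block for the replicate number were fitted to every gene, and likewise to every probe. The p-values are two-sided and adjusted by Benjamini and Hochberg over all genes or probes of a comparison, with a threshold of 0.05. The pairing comes from replicate numbers in the labels and the paired test of the methods. Correlations of array deviations from group means ran from 0.148 to 0.576 for the 18 pairs with the same number and from -0.497 to 0.201 for the others. The median of the standard error of a log2 change over all genes was 0.10. The number of arrays limits the precision.

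All 7 members are named, with the 3 largest rises and falls among called partners and the 3 genes most like each member. Members and lists were chosen with earlier results of these data known. To find probes apart from their gene, limma's diffSplice had been planned. In simulated data it called probes between groups left without any change. Limma on each probe minus the mean of its gene's other probes called none there and was used instead. The simulated spread was independent between probes and held no replicate effect. The change of test was made after seeing the data. The plots used Python 3.11.15 and matplotlib 3.10.9.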

Additional observations from a re-analysis of the deposited data

Results flagged for a closer look

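The effect of the mimic on AGO2 was flagged because it went up in all 3 replicates of cells with AGO2 intact and down in all 3 replicates of silenced cells. In silenced replicate 3 the mean over probes changed by -0.01, and this sign rests on the probe A_37_P393960, undetected with both agents. In silenced cells 9 of the 19 probes were higher and 10 lower, with a median of -0.05. The difference of the mimic effects was -0.34 on the log2 scale. It had an unadjusted p = 0.0114 by limma and did not pass after adjustment over all genes (adjusted p = 0.181, from 0.135 to 0.568 over the alternatives with adjustment). Of the 19 AGO2 probes 18 had a lower mimic effect in silenced cells. The lowest of the probe differences, -1.50, was that of A_37_P393960 and uses undetected values.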

How the results depend on the processing

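Over 27 alternatives (26 for the difference of the mimic effects) none of the values of called members changed sign, and 41 of the values of members that were not called did. The calls were less stable. AGO2 passed under 22 of 27 for each silencing comparison and under 14 of 27 for the mimic in intact cells, TNRC6A under 23, TNRC6C under 18 and TNRC6B under 6. The members called for the mimic in intact cells (3) were 1 with the median over probes, 1 when the fit held just the 6 arrays compared and 0 by the methods' paired t-test after adjustment. For the mimic in silenced cells (0) they were 1 with normexp, 1 in the authors' log2 table, 3 from probes detected on all 12 arrays and 2 by the unadjusted paired t-test. For silencing alone (1) they were 0 and 3 by the adjusted and the unadjusted paired t-test, the latter against 17.5% of all genes. For silencing with the mimic (2) they were 1 with 75th percentile scaling, the authors' table, the median over probes or the slide as a random block, and 0 when the fit held just those 6 arrays or by the adjusted paired t-test. For the difference of the mimic effects (0) the unadjusted paired t-test gave 2, against 10.3% of all genes. Leaving out an array or a replicate number gave 0 to 3, 0, 0 to 1, 0 to 2 and 0 members in these 5 comparisons, and leaving out all arrays of 1 number left 0 in each. Without the replicate block 1, 0, 1, 1 and 0 members were called, and member probes called went from 29 to 9, from 5 to 0, from 9 to 2 and from 14 to 9, with 0 probes apart from their gene. The diffSplice test called 2, 3, 1, 8 and 2 member probes apart. It also called probes in simulated data without a change, and its share over all probes is not given here. These counts are therefore no support for any probe. Counts over all genes ranged from 0 to 4940, 2600, 3186, 2216 and 1888 over the alternatives, against 4119, 1327, 471, 786 and 2. With 75th percentile scaling the median log2 change of all genes for the mimic in silenced cells was 0.11, against 0.02, and 80.1% of the called genes were higher, against 58.3%. Causes were not tested. No spot was saturated, and from 9 probes (AGO4) to 19 (TNRC6A) of a member were detected on every array.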
